A study of Mus musculus with 22 samples.

Results

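The genes described here are 10 regulators of hematopoietic stem and progenitor cells, 9 transcription regulators and the receptor Kit, taken by symbol from the GENCODE vM1 annotation of the mouse genome (build mm9), in which they are 10 of 22367 protein-coding genes. To follow them through exit from mitosis, every RNA polymerase II (PolII) peak that overlapped a gene or its 5 kb flanks, together called the gene window, was taken from 18 peak lists, 1 per chromatin immunoprecipitation (ChIP-seq) library. All libraries came from G1E-ER4 cells, a subline of the GATA1-null mouse proerythroblast line G1E that carries GATA1 fused to the ligand-binding part of the estrogen receptor, a protein that is inactive without estradiol, grown with kit ligand and erythropoietin. In the derivative used, both copies of Ctcf carried an auxin-inducible degron and mCherry, and a retrovirus supplied the plant receptor OsTiR with GFP, in control and auxin libraries alike. Cells were arrested in prometaphase with nocodazole, released and sorted. Prometaphase cells and cells at 1 h (early-G1), 2 h (mid-G1) and 4 h (late-G1) of release were each profiled without auxin (control) or with 1 mM auxin, which removes CTCF. Auxin was added for the last 4 h of the arrest and, as the methods state for early-G1 and mid-G1, kept on during release, and mCherry-positive control and mCherry-negative auxin cells were sorted. Each condition had 3 libraries in mid-G1 and 2 at every other stage, which the study treated as biological replicates. No estradiol is named in the growth or treatment protocols. The model is thus 1 cell line without active GATA1, and the GATA1-dependent silencing that several of these genes undergo in maturing red cells was not part of the experiment.

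Blood progenitors are held in their state by a small set of DNA-binding proteins that often work on the same regulatory elements. GATA2 binds GATA words and is replaced by GATA1 as erythroid cells mature. TAL1 and LYL1 are related basic helix-loop-helix proteins that bind E-boxes with E-protein partners, and LMO2 is a bridging protein with no DNA binding of its own that joins them to GATA factors and LDB1. ZFPM1 (FOG1) is a cofactor of GATA factors, and GFI1B is a zinc-finger repressor of the erythroid and megakaryocytic lineages. RUNX1, FLI1 and MYB are lineage regulators of separate DNA-binding families, and KIT is the receptor tyrosine kinase for kit ligand, a cytokine on which these cells are grown.

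The prometaphase lists held 2414 to 3918 peaks and the 14 lists after mitosis 50594 to 117125, so a gene without a prometaphase peak was below the threshold of a short list and cannot be called free of PolII. The background depth, recovered from the deposited scores, was 4.94 to 5.96 reads per kb in prometaphase and 4.51 to 13.3 after mitosis. Control mid-G1 replicate 1 was the shallowest library after mitosis, at 4.51 reads per kb, and had the shortest list of those stages, and calls that turn on it are given with and without it. Among erythroid precursor markers, Klf1, Epor, Tfrc and Nfe2 had a peak over an annotated transcription start site (TSS) in all 14 post-mitotic lists, whereas Slc4a1 and Alas2, genes of late maturation, had none and Hbb-b1 had 1 of 14. None of 4 T cell, 4 B cell, 5 myeloid or 5 fibroblast and endothelial markers had a TSS peak in all 14 lists, although Lck had 13 of 14, and the megakaryocyte genes Itga2b and Gp1ba had 14 of 14 while Pf4 had 4 and Gp9 none.

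The sequences below are the promoters and the single downstream region on which the results turn. They were read from the mm9 genome, 5′ to 3′ on the strand of the gene, and each promoter runs from 250 bp before an annotated start to 30 bp after it. A single capital marks the annotated start base. Longer runs of capitals mark 1 of 3 words on either strand. The GATA word searched was AGATAA. The E-box word of TAL1-type proteins was CAGATG. The word of RUNX proteins was TGTGGT.
Runx1 distal promoter, chr16:92826281-92826561, minus strand: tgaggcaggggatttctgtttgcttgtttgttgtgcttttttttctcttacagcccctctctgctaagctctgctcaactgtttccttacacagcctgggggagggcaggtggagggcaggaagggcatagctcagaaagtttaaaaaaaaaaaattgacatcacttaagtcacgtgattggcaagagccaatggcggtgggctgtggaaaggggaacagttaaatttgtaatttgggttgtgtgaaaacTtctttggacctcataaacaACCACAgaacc
Runx1 proximal promoter, chr16:92697543-92697823, minus strand: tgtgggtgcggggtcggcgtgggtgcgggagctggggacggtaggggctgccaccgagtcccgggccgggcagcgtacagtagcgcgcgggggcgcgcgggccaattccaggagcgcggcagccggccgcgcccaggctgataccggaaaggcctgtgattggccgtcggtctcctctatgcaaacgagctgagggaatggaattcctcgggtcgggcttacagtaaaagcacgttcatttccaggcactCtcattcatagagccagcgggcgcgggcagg
Gata2 upstream promoter, chr6:88143635-88143915, plus strand: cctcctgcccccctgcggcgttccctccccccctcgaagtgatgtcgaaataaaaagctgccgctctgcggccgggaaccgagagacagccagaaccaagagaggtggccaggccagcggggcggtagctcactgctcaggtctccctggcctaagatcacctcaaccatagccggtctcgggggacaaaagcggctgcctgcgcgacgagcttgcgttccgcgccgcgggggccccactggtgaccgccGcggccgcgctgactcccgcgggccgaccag
Gata2 downstream promoter, chr6:88148408-88148688, plus strand: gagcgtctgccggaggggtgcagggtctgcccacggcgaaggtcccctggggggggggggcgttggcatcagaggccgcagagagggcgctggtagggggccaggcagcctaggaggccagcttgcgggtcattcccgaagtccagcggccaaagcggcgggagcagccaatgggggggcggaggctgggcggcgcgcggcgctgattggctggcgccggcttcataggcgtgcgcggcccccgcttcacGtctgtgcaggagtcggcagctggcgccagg
Gata2 region past the 3′ end, chr6:88157405-88157605, plus strand: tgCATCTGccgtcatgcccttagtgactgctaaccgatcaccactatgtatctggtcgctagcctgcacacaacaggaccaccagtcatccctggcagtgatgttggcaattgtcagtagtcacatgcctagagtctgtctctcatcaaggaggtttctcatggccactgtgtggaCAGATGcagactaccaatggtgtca
Lmo2 inner promoter, chr2:103809435-103809715, plus strand: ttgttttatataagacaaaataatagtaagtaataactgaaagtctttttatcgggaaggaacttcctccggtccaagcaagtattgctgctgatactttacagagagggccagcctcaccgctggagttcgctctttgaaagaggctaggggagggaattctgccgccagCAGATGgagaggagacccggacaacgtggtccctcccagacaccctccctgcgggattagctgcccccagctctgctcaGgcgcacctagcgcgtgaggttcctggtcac
Tal1 inner promoter, chr4:114729793-114730073, plus strand: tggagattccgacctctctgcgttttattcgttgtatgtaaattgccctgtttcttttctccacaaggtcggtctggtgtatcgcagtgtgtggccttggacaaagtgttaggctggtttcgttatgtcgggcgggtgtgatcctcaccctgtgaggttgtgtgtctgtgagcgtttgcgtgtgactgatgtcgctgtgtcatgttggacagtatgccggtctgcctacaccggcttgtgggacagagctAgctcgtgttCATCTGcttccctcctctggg
Kit promoter, chr5:75970691-75970971, plus strand: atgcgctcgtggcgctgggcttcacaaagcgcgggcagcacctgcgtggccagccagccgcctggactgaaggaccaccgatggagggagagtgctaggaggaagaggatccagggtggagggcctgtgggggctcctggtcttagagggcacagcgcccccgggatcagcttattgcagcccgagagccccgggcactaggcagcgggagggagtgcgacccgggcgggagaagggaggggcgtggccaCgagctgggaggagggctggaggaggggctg

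The 6 letters of AGATAA, on either strand, were present in 2 of the 17 coding promoters of the 10 genes, the outermost promoters of Lmo2 and Tal1, against 10.6% of 31276 coding promoters of the same length. CAGATG was present in 4 of 17 against 15.6%, and TGTGGT in 1 of 17, the distal Runx1 promoter, against 15.0%. The 3 words do not overlap one another in these promoters. The Gata2 downstream region, 201 bp long and centred 481 bp past the annotated 3′ end, held CAGATG once on each strand. A match is a description of the letters and not a measured binding site.

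In prometaphase a peak touched an annotated start of 3 of the 10 genes in at least 1 of 4 lists, Gata2, Tal1 and Runx1, against 8.03% of all protein-coding genes. Only Runx1 had such a peak in all 4 lists, which 2.07% of all genes did. With any peak in the gene window counted, Gata2, Tal1, Lmo2, Runx1 and Lyl1 had one in all 4 lists, against 5.89% of all genes. Kit and Gfi1b had window peaks in 2 and 3 of the 4 lists, and Myb, Zfpm1 and Fli1 had none. After mitosis 8 genes had a TSS peak in all 14 lists, the exceptions being Zfpm1 with 12 and Fli1 with 13, against 33.2% of all genes, and all 10 had a window peak in all 14 lists, against 48.0%. Peaks in the gene body, here from 500 bp after the outermost start to the 3′ end, were found for all 10 genes in all 14 post-mitotic lists, against 30.1%, and in all 4 prometaphase lists for Tal1 and Runx1, against 1.62%. This stretch takes in the inner promoters of both genes, so these are not all peaks apart from a promoter. The Runx1 body coverage of control and auxin prometaphase replicate 2, 353 and 386 bp, was the proximal promoter peak alone. In auxin prometaphase replicate 2 the Tal1 body coverage, 197 bp, was the inner promoter peak alone.

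Peaks were compared by rank within each list, ordered by the fold enrichment over background at the summit so that rank 1 is the strongest, because enrichment depends on depth. A gene's TSS rank is the best rank among peaks that touch one of its annotated starts.

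Runx1 (chr16:92601712-92826311, minus strand) has 2 well separated coding promoters, the distal one at its 5′ end and the proximal one 128738 bp further in, which start different protein isoforms. In prometaphase every list had a narrow peak of 277 to 386 bp with its summit within 500 bp of the proximal start. Its rank was 395 and 450 in the control lists and 363 and 488 in the auxin lists, with 19 to 22 reads at the summit, so the conditions overlapped. After mitosis the same promoter was again the strongest site of the gene in 14 of 14 lists. It ranked 142 and 118 in control early-G1 and 161 and 107 with auxin, 252, 196 and 149 in control mid-G1 and 161, 175 and 110 with auxin, and 112 and 150 in control late-G1 and 235 and 155 with auxin. Those 14 ranks lie within 107 to 252, the narrowest range of the 10 genes, with a median of 152.5. In control prometaphase replicate 1 that peak stopped short of the start base, so the TSS peak of that list was the distal one. The distal promoter also had a summit within 500 bp in 14 of 14 lists, but at ranks of 1492 to 11013 with a median of 5418.5, and the ranges of the 2 promoters do not overlap. In prometaphase the distal promoter had a summit in 1 control list, at rank 3269, and 1 auxin list, at rank 1928.

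**Figure D1:**
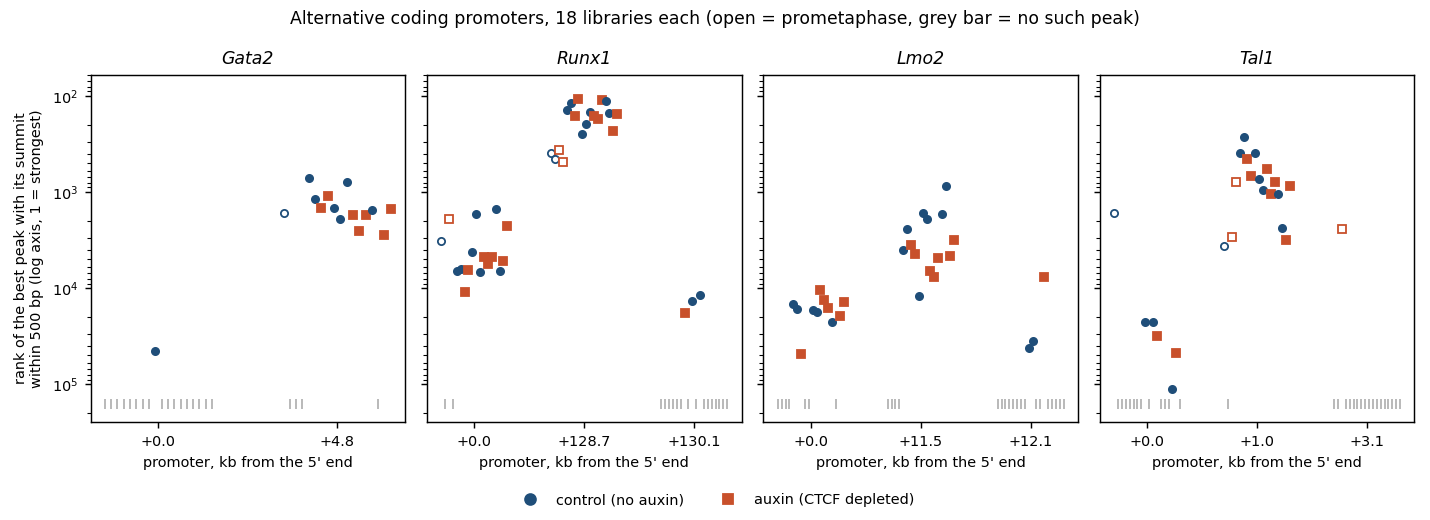
Rank of the best peak with a summit within 500 bp of each coding promoter (vertical log axis, rank 1 at the top) for the genes with several such promoters, placed by distance from the 5′ end in kb. Filled symbols are post-mitotic and open symbols prometaphase libraries, circles control and squares auxin, and the grey bar holds libraries with no such peak; the inner promoters of Runx1, Tal1 and Lmo2 and the downstream promoter of Gata2 carry the strong summits.

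Gata2 (chr6:88143885-88157024, plus strand) has 2 annotated starts 4773 bp apart. The downstream start had a summit within 500 bp in 13 of 14 post-mitotic lists, at ranks of 720 to 2805, and the upstream start in 1 of 14, at rank 45586. The gene's TSS rank was 720 and 1192 in control early-G1 and 1477 and 1117 with auxin, 1473, 1910 and 781 in control mid-G1 and 1734, 2553 and 1744 with auxin, and 1545 and 1067 in control late-G1 and 2805 and 1501 with auxin. Control and auxin ranges overlapped at each of the 3 stages. In control late-G1 replicate 3 the value belongs to 1 peak that spans the gene and has its summit past the 3′ end, as the strongest Gata2 summit did in all 14 lists, 415 to 607 bp beyond the gene. The region printed above is centred on the median of those summits.

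That downstream site was also the strongest Gata2 site in prometaphase, 453 to 581 bp past the 3′ end in all 4 lists. Its rank was 605 and 682 in the control lists and 531 and 356 in the auxin lists, with 18 to 22 reads at the summit. The nearest start of another gene, Dnajb8, lay at least 13581 bp from every prometaphase summit of the Gata2 window. At the downstream Gata2 promoter, by contrast, only control prometaphase replicate 1 had a peak, at rank 1644 with 12 reads.

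Tal1 (chr4:114729031-114744360, plus strand) was strongest near its inner promoter, 1012 bp from the 5′ end, which had a summit within 500 bp in 14 of 14 post-mitotic lists at ranks of 267 to 3187. The outermost promoter had one in 5 of 14 at ranks of 22830 to 113386, and the third, 3082 bp in, had none. The TSS rank was 390 and 267 in control early-G1 and 455 and 685 with auxin, then 394, 735 and 960 in control mid-G1 and 574, 1046 and 790 with auxin. In late-G1 it was 1055 and 2397 in the control lists and 3187 and 866 in the auxin lists. All 4 late-G1 ranks were weaker than all 4 early-G1 ranks. In prometaphase a TSS peak was present in control replicate 1, at rank 3697, and auxin replicate 2, at rank 781.

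Lyl1 (chr8:87225356-87228614, plus strand), the paralogue of Tal1, lies inside Nfix on the opposite strand, so PolII at Lyl1 and at Nfix cannot be told apart by these peaks. Its TSS rank was 338 and 755 in control early-G1 and 792 and 413 with auxin, 750, 329 and 49 in control mid-G1 and 126, 85 and 88 with auxin, and 191 and 91 in control late-G1 and 219 and 418 with auxin. The peaks were wide, and in 13 of 14 lists the strongest window summit lay 732 to 2466 bp past the 3′ end and not at the start. Only 4 of 14 lists had a summit within 500 bp of the Lyl1 start, at ranks of 329 to 792, so the other ranks describe the downstream summit.

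Lmo2 (chr2:103798143-103822035, plus strand) was strongest at its inner promoter, 11542 bp from the 5′ end, in 13 of 14 post-mitotic lists. The TSS rank was 4004 and 2459 in control early-G1 and 3559 and 4478 with auxin, and 12245, 1647 and 1935 in control mid-G1 and 6614, 7751 and 4917 with auxin. In late-G1 it was 1707 and 870 in the control lists and 4611 and 3152 in the auxin lists. The auxin ranks were weaker than both controls in late-G1, and in mid-G1 than 2 of the 3 controls, the exception being the shallow control replicate 1 at 12245. The outermost Lmo2 promoter had a summit in 11 of 14 lists, at ranks of 10416 to 48260.

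Gfi1b (chr2:28464970-28477502, minus strand) had its strongest summit at the start in 13 of 14 lists. The TSS rank was 3443 and 4580 in control early-G1 and 2791 and 2694 with auxin, 1893, 1207 and 1410 in control mid-G1 and 1428, 1198 and 1874 with auxin, and 1087 and 2587 in control late-G1 and 1940 and 2408 with auxin. Every late-G1 rank was stronger than every early-G1 rank. Zfpm1 (chr8:124806039-124861146, plus strand), which lies within the readthrough gene Gm20388, had no TSS peak in control mid-G1 replicates 1 and 2. In the other 12 lists its TSS rank ran from 9066 to 36550 with a median of 15256, and in 13 of 14 lists its strongest window summit lay 1320 to 4804 bp past the 3′ end.

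Kit (chr5:75970941-76052747, plus strand) had its strongest summit 83 to 159 bp after the outermost start in 14 of 14 post-mitotic lists. The TSS rank was 657 and 679 in control early-G1 and 677 and 718 with auxin, 285, 517 and 295 in control mid-G1 and 410, 381 and 371 with auxin, and 548 and 368 in control late-G1 and 618 and 695 with auxin. Control and auxin ranges overlapped in early-G1 and mid-G1 but not in late-G1, where both auxin ranks were the weaker. In prometaphase no peak touched a Kit start, but both auxin lists had a peak with its summit within 500 bp of a start, 161 and 166 bp away, at ranks 1169 and 1428 with 13 and 12 reads, and neither control list had one. These peaks were 251 and 189 bp wide, and prometaphase summits in the windows held 9 to 27 reads. By covered bases, 239 of 10733 genes had more in both auxin prometaphase lists than in both control lists. Whether auxin changed Kit in prometaphase was not tested.

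Myb (chr10:20844736-20880790, minus strand) had a TSS rank of 6339 and 8688 in control early-G1 and 5335 and 7021 with auxin, 11508, 8095 and 5556 in control mid-G1 and 8931, 5694 and 6001 with auxin, and 7279 and 3224 in control late-G1 and 6528 and 4832 with auxin. The ranges overlapped between conditions at each stage. Fli1 (chr9:32229793-32348974, minus strand) was the weakest together with Zfpm1, with no TSS peak in control mid-G1 replicate 1 and ranks of 8361 to 36799, median 15263, in the other 13 lists.

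Besides the promoters, prometaphase peaks also lay past the 3′ ends, a pattern that was chosen for description after its values were seen. Of 67 prometaphase peaks in the windows of 7 genes, 41 had their summit past the 3′ end, in 6 genes. Another 14 lay within 500 bp of a start, in 4 genes, 6 in another exon, 3 in an intron and 3 upstream of Gata2. Of the 41, 15 lay at Lyl1 and 8 each at Gata2 and Lmo2, with several peaks from a single list counted separately. The share of all prometaphase peaks that lie past a 3′ end is not given here. A summit within 5 kb past the 3′ end in all 4 prometaphase lists was found for Gata2, Tal1, Lmo2 and Lyl1, against 2.25% of all protein-coding genes. The best of these at Tal1 ranked 2662 and 1551 in the control lists and 1169 and 689 with auxin. At Lmo2, where the antisense gene 4931422A03Rik covers the site, the best ranked 927 and 1551 in the control lists and 1928 and 2006 with auxin. At Lyl1 the best ranked 365 and 620 in the control lists and 329 and 250 with auxin, and these summits were 93 to 2607 bp from annotated starts of Nfix, so they cannot be assigned to Lyl1. At Gfi1b the best ranked 2711 in control replicate 1 and 966 and 1708 with auxin, with none in control replicate 2, and an annotated small RNA gene, AL731851.1, started 1172 to 1682 bp away.

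**Figure D2:**
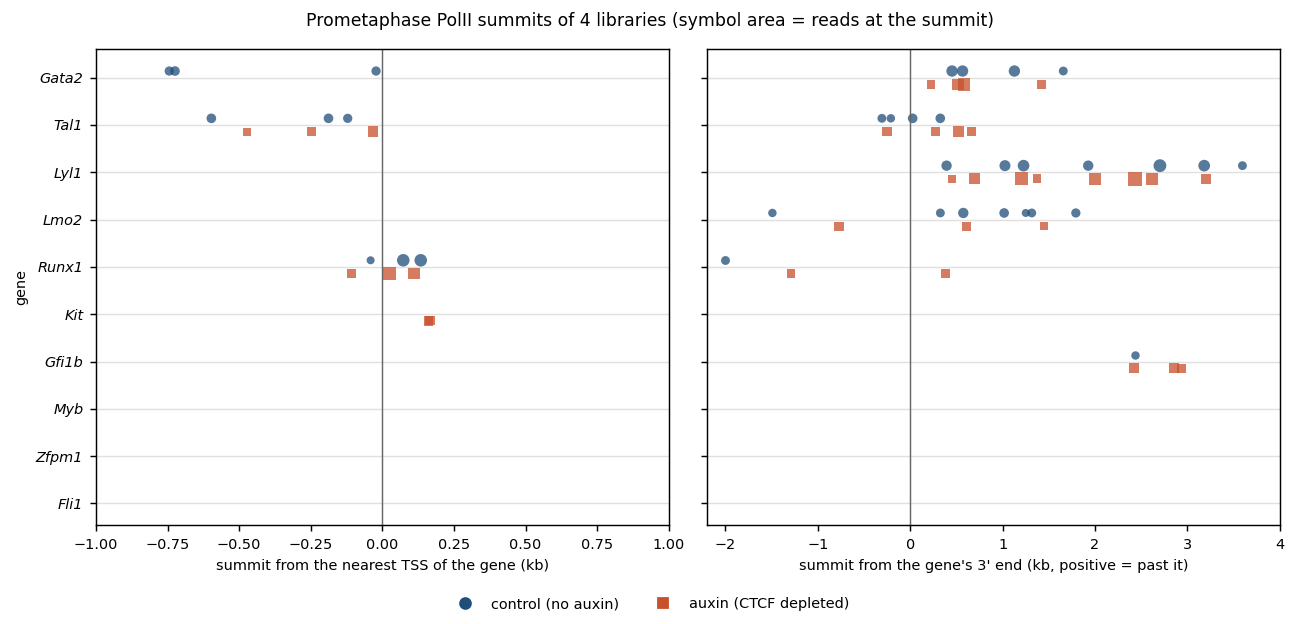
Summits of prometaphase peaks near the starts and past the 3′ ends of the 10 genes (horizontal axes, distance in kb), with 1 symbol per summit, circles for control and squares for auxin, and symbol area scaled to the reads at the summit. Gata2, Tal1, Lmo2 and Lyl1 have summits past the 3′ end in all 4 libraries, Runx1 has its proximal promoter in all 4, and Myb, Zfpm1 and Fli1 are empty.

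Whether PolII moved between early-G1 and late-G1 was tested over all genes with limma on −log2 rank, pooling both auxin conditions and adjusting p-values over all genes tested (Benjamini-Hochberg). For TSS rank, 1 of the 8 genes tested was called, against 11.9% of all 7426 genes. Tal1 fell by 1.94 ± 0.43 (SE, 4 libraries against 4) on the −log2 rank scale from early-G1 to late-G1, a 3.83-fold larger rank number (limma adjusted p = 0.00841). The best rank anywhere in the Tal1 window also fell by 1.44 ± 0.37 (SE, limma adjusted p = 0.0181), the only call among 10 genes, against 13.6% of 10733 genes. With log2 fold enrichment in place of rank, both Tal1 calls missed the threshold, at limma adjusted p of 0.0532 and 0.0964. Gfi1b and Lyl1 had estimates in the other direction, +0.79 ± 0.31 (SE, limma adjusted p = 0.114) and +1.43 ± 0.63 (SE, limma adjusted p = 0.161), which did not pass with all libraries. The Lyl1 estimate sets early-G1 ranks, some of them at the start, beside late-G1 ranks of the summit past its 3′ end. Without control late-G1 replicate 3 Gfi1b rose by 1.11 (limma adjusted p = 0.0253), and without control mid-G1 replicate 3 Lyl1 rose by 1.43 (limma adjusted p = 0.0292). In the window, the Tal1 call was lost without control early-G1 replicate 2, auxin early-G1 replicate 1, control late-G1 replicate 3 or auxin late-G1 replicate 1 (−1.05 to −1.38, limma adjusted p of 0.0617 to 0.0779). Gfi1b was gained there without control late-G1 replicate 3 (+1.11, limma adjusted p = 0.0150), and Lyl1 without control mid-G1 replicate 1 or 3 or control late-G1 replicate 2 (+1.34 to +1.60, limma adjusted p of 0.0282 to 0.0451). Early-G1 and late-G1 ranks did not overlap for 2 of the 8 genes, Gfi1b and Tal1, against 19.0% of all genes. The median of the 8 estimates was 0.35, beside −0.04 over all genes.

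The effect of auxin was tested in the same fit. limma called 0 of 8 TSS ranks in the average over the 3 stages, against 0.660% of all genes, and 2 had an unadjusted p under 0.05. Those were Lmo2, −0.96 ± 0.39 (SE, 7 libraries against 7, limma adjusted p = 0.489), and Gata2, −0.58 ± 0.26 (SE, limma adjusted p = 0.572), both weaker with auxin. Without the shallow control mid-G1 replicate 1, however, Lmo2 fell by 1.27 ± 0.24 (SE) on the −log2 rank scale, a 2.41-fold larger rank number (limma adjusted p = 0.0201), so the Lmo2 call turns on that library. The best rank in the Lmo2 window behaved alike, −1.06 ± 0.31 (SE, limma adjusted p = 0.166) with the library and −1.27 ± 0.23 (SE, limma adjusted p = 0.0183) without it. Over the gene windows 0 of 10 genes were called with all libraries, against 0.848% of all genes, and 1 had an unadjusted p under 0.05, Lmo2.

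Taken stage by stage, limma called 0 of 8 genes in early-G1, against 0.0943% of all genes, 0 of 8 in mid-G1, against 0.269%, and 0 of 8 in late-G1, against 0.202%. The unadjusted p was under 0.05 for 0, 0 and 1 of them. The test of whether the auxin difference varied between stages called 0 of 8, against 0.0135% of all genes, and for none of the 8 was the unadjusted p under 0.05. In late-G1 all 8 estimates were below 0, that is, weaker with auxin, from −0.06 at Tal1 to −1.65 ± 0.72 (SE, limma adjusted p = 0.552) at Lmo2, with a median of −0.55 beside −0.07 over all genes. The best rank in the window shared that direction in part in late-G1, and covered bases did not. For the best rank in the window 7 of 10 estimates were below 0, with a median over the 10 of −0.29 beside −0.08 over all genes. The 3 above 0 included Gata2 (+0.56 ± 0.54, SE, limma adjusted p = 0.821) and Tal1 (+0.56 ± 0.53, SE, limma adjusted p = 0.814). For covered bases all 10 were above 0, with a median of 0.30 beside 0.09 over all genes. Late-G1 control and auxin ranks did not overlap for 4 of the 8, Kit, Lmo2, Lyl1 and Runx1, against 33.7% of all genes, and in all 4 the auxin ranks were the weaker, a direction found for 19.1% of all genes. The late-G1 Lyl1 ranks describe the summit past its 3′ end, which cannot be told apart from Nfix. The authors left a late-G1 library out for a technical error, and the late-G1 control libraries are numbered 2 and 3 and the auxin libraries 1 and 2. The authors' reporting summary names late-G1 replicate 1 as with auxin among raw files but without auxin among signal and peak files. Its sequencing depth list also gives the late-G1 library that carries no replicate number as without auxin. The sample title, followed here, gives it as with auxin, and every late-G1 auxin comparison here includes it.

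**Figure D3:**
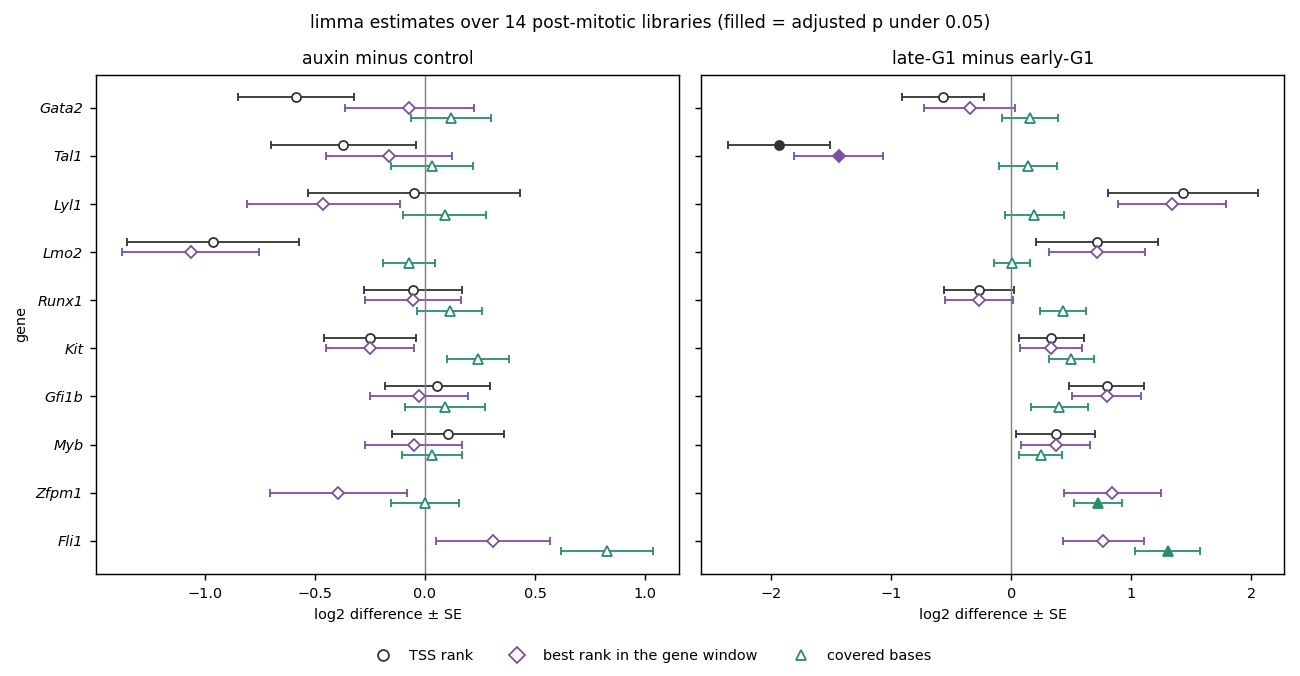
limma estimates of the late-G1 against early-G1 and auxin against control differences for the 10 genes, on log2 scales with bars of 1 SE, for TSS rank, best rank in the gene window and covered bases; positive is stronger or wider, and filled symbols have an adjusted p under 0.05. The filled symbols are Tal1 (−1.94 and −1.44), Fli1 (+1.30) and Zfpm1 (+0.72), all in the late-G1 against early-G1 difference.

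To ask how far PolII spread over each gene, the bases of each window under peaks were counted. Coverage differed widely among the 10 genes after mitosis. The Gata2 window was covered to 69.6% at the lowest, 90.1% at the median and 92.4% at the highest, and Lyl1 followed with 74.9%, 85.7% and 93.9%. Gfi1b had 60.0%, 71.2% and 75.8%, and Tal1 had 59.4%, 70.2% and 75.7%. These are the 4 shortest genes of the set. Lyl1 itself is 3259 bp of a 13259 bp window that overlaps Nfix, so that coverage is mostly of flanks and cannot be assigned to Lyl1. The lowest values of Gata2 and Tal1 belong to the shallow control mid-G1 replicate 1, without which they are 87.0% and 63.7%. Among the longer ones Zfpm1 had a median of 67.4%, Myb 65.2%, Lmo2 51.4%, Runx1 50.4% and Kit 48.7%, whereas Fli1 had 1.89%, with a range of 0.561% to 6.27%, or 1.03% to 6.27% without control mid-G1 replicate 1. Control mid-G1 replicate 1 and auxin mid-G1 replicate 3 had the lowest coverage of the Kit, Myb, Lmo2, Runx1 and Zfpm1 bodies, for example 9442 and 23673 bp of the Kit body against 35265 to 62438 bp in the other 12 lists. When the peaks of all 18 lists were merged, the peaks of the Gata2 window became 1 region of 26258 bp, reaching past the window, with peaks in all 18 lists. Runx1 broke into 93 regions, of which 19 were found in all 14 post-mitotic lists and 1, at the proximal promoter, in all 4 prometaphase lists. Fli1 broke into 52 regions, of which 1, of 1978 bp, was found in all 14.

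**Figure D4:**
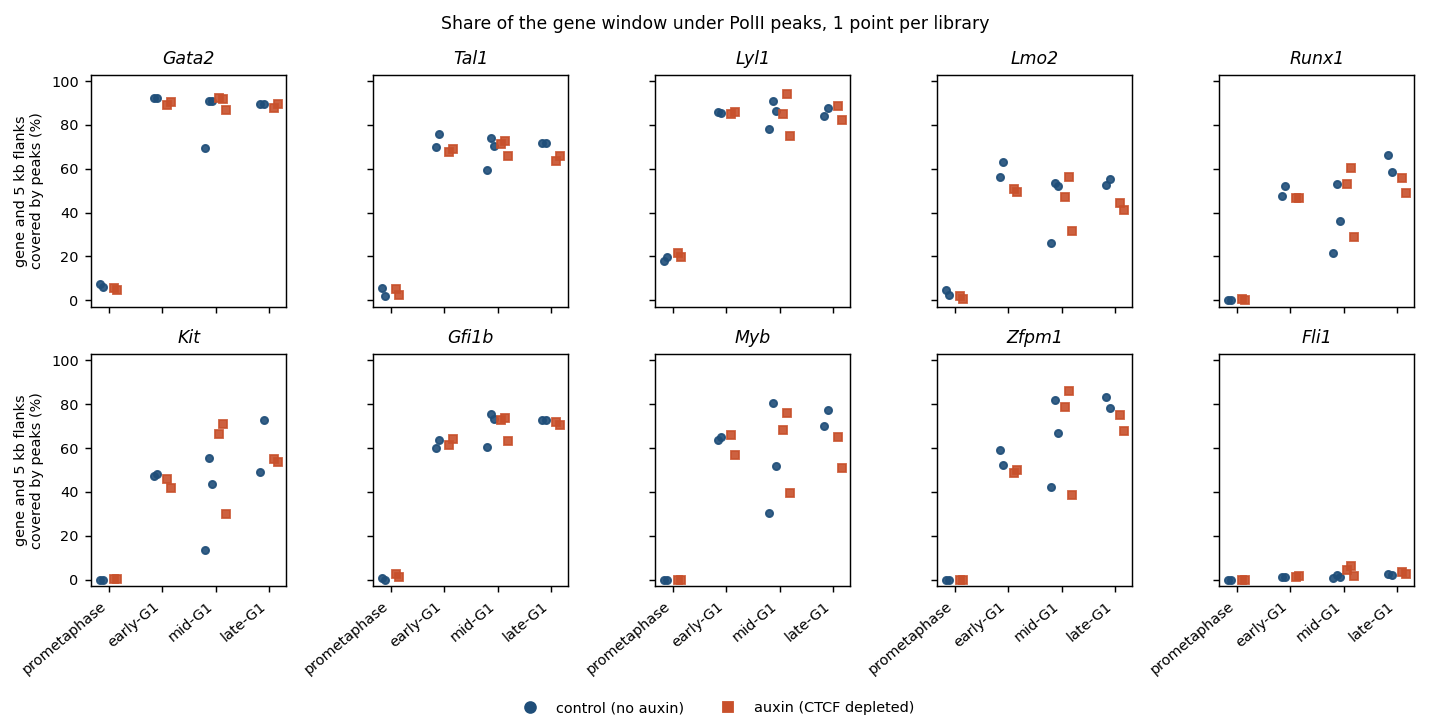
Percent of each gene window (gene and 5 kb flanks) under PolII peaks by stage, with 1 point per library, circles for control and squares for auxin. Prometaphase points lie at 7.43% or lower except for Lyl1, at 17.8% to 21.8%, Gata2 and Lyl1 sit highest after mitosis with medians of 90.1% and 85.7%, and Fli1 stays at 6.27% or lower. The Lyl1 window is mostly flank and overlaps Nfix.

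Covered bases, centred on the median gene of each library, were also compared between early-G1 and late-G1. limma called 2 of the 10 genes, both wider in late-G1, against 29.4% of 10733 genes called in either direction. Over all genes the calls were 1693 wider and 1459 narrower. Fli1 rose by 1.30 ± 0.27 (SE, 4 libraries against 4, limma adjusted p = 0.00367), or 2.47-fold. Its covered bases were 1325 and 1622 bp in control early-G1 and 1368 and 2005 bp with auxin, and 3354 and 2644 bp in control late-G1 and 4755 and 3075 bp with auxin. Zfpm1 rose by 0.72 ± 0.20 (SE, limma adjusted p = 0.0168), or 1.65-fold, from 38560 and 33976 bp in control early-G1 and 31668 and 32452 bp with auxin to 54242 and 50963 bp in control late-G1 and 48840 and 44130 bp with auxin. The bases printed for Fli1 and Zfpm1 are as counted and not centred. Both calls were lost without the centring, at 1.11 (limma adjusted p = 0.203) for Fli1 and 0.54 (limma adjusted p = 0.314) for Zfpm1, and the Zfpm1 call was also lost without any of 4 single libraries, control or auxin replicate 2 of early-G1 or late-G1 (0.57 to 0.73, limma adjusted p of 0.0507 to 0.0729). Kit, at +0.50 ± 0.18 (SE, limma adjusted p = 0.0572), passed without control mid-G1 replicate 1 or 2 or auxin mid-G1 replicate 3 (limma adjusted p of 0.0280 to 0.0439), and Runx1, at +0.43 ± 0.19 (SE, limma adjusted p = 0.109), passed without control late-G1 replicate 3 (+0.61, limma adjusted p = 0.0340). All 10 estimates were above 0, with a median of 0.32 beside 0.06 over all genes. Auxin gave 0 calls among the 10 genes, against 2.01% of all genes, and 1 had an unadjusted p under 0.05, Fli1 at +0.83 ± 0.21 (SE, 7 libraries against 7, limma adjusted p = 0.0648). Fli1 passed without auxin mid-G1 replicate 3 (+0.94, limma adjusted p = 0.0227) or control late-G1 replicate 2 (+0.97, limma adjusted p = 0.0375).

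The partners of these genes were read in the same way, from lists of complex partners, other progenitor transcription factors and cytokine receptor signalling. Of 14 genes for complex partners, such as Ldb1, which binds LMO2, and Cbfb, which binds RUNX1, 11 had a TSS peak in all 14 post-mitotic lists and 2, Chd4 and Rbbp4, in at least 1 prometaphase list. limma called 0 of these 11 for auxin, where 0 had an unadjusted p under 0.05, and 0 between early-G1 and late-G1, where 2 did. For these lists the shares over all genes are 33.2% with a TSS peak in all 14 lists, 0.660% called for auxin and 11.9% called between early-G1 and late-G1. The other progenitor factors split evenly, 10 of 20 with a TSS peak in all 14 lists and 10 in none, the latter being Erg, Meis1, Mecom, Hoxa9, Cebpa, Lmo1, Tal2, Runx2, Runx3 and Zfpm2. Among paralogues of the 10 genes, Runx2, Runx3, Tal2, Lmo1 and Zfpm2 thus had no TSS peak, whereas Gata1, Gata3, Mybl2 and, among the complex partners, Lmo4 had one in all 14 lists. The Gata1 ranks were 1739 to 10574. Mybl2, a cell cycle relative of Myb, fell from early-G1 to late-G1 by 1.45 ± 0.27 (SE, limma adjusted p = 0.00281), the only call of 10 tested. Its TSS rank was 831 to 983 in the 4 early-G1 lists, 4955 to 8986 in the 6 mid-G1 lists and 1522 to 3665 in the 4 late-G1 lists, so it was weakest in mid-G1. In cytokine signalling 9 of 14 genes had a TSS peak in all 14 lists, among them Epor, while Kitl, which encodes kit ligand, Flt3 and Lyn had none. Ptpn6, a phosphatase that dampens signalling from Kit and Epor, rose by 1.58 ± 0.36 (SE, limma adjusted p = 0.00988) from early-G1 to late-G1, the only call of 9 tested, its TSS rank being 4500 to 5745 in the early-G1 lists and 1013 to 3023 in the late-G1 lists. For auxin 0 of these 9 and 0 of the 10 progenitor factors were called, and 0 had an unadjusted p under 0.05. Across the 14 post-mitotic libraries the genes whose −log2 TSS rank followed Gata2 most closely, of 7426 compared, were Tab1 (Pearson r = 0.892), Gng5 (0.860) and Znhit2-ps (0.818), and those closest to Kit were Ctage5 (0.897), Gtf3c3 (0.884) and Csk (0.871). These correlations describe libraries that share stage and depth and carry no test.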

How the data were processed

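PolII ChIP-seq was profiled in 18 libraries of G1E-ER4 cells, and the 4 input samples were not used here beyond the authors' peak calling. The authors aligned reads to mm9 with Bowtie2 2.2.9, removed duplicates and low-quality alignments with SAMtools 0.1.19 and listed regions with bedtools 2.27.1, and called peaks per library with MACS2 2.1.0. The deposited lists give peak positions, summits, fold enrichment over background (a linear ratio), −log10 p-values, −log10 q-values and an integer display score, of which fold enrichment, summits and the −log10 values were used. No read counts were used, so the statistics describe called peaks, and small or merged peaks follow the calling threshold and depth. Summit reads and background were recovered by solving the enrichment and p-value of each peak, and reads came out whole within 0.05. The depth stated for a library is its most common background divided by the width of its narrowest peak. No confidence interval was set on single peaks, since reads at a summit cover counting error alone.

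Peaks were assigned to GENCODE vM1 genes with at least 1 bp of overlap with the gene and 5 kb flanks, with an annotated TSS, or with the body from 500 bp after the start. Promoters were starts merged within 500 bp. Ranks by fold enrichment (−log2) and covered bases (log2, centred on the library median gene) were fitted with limma 3.58.1 in R 4.3.3 over all protein-coding genes with a value in all 14 post-mitotic libraries, as 6 groups, after a check on simulated data, and called at a Benjamini-Hochberg adjusted p under 0.05. Prometaphase was described and not tested, since most genes have no peak in its short lists. Spi1 was matched under an older symbol, and Gfi1 was not matched among protein-coding genes. All 10 genes are named, and partners by list. Some listed marker and partner genes are not reported here. The members, lists and tests were chosen with earlier results of these data known, so no pattern here is independent support for those results. Alternatives were a minimum −log10 q of 5, other gene windows and TSS definitions, fold enrichment or normal scores in place of ranks, covered bases without centring, a replicate block, depth as a covariate and leaving out each library. The summit, coding-TSS and depth alternatives were added after seeing the data.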

Additional observations from a re-analysis of the deposited data

Results flagged for a closer look

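For 5 of the genes control and auxin libraries did not overlap at 2 stages and stood in opposite order. By the best rank in the gene window these were Gata2, Tal1 and Lyl1, 3 of the 10 genes, against 8.47% of 10733 genes, many of which have no prometaphase rank and could not show this order there. By covered bases, as counted and not centred, they were Kit and Gfi1b, 2 of the 10, against 6.61%. Both shares count any 2 stages, while all 5 genes include prometaphase, so the shares are not a like comparison. In prometaphase alone, both auxin rank numbers were below both control ones for 266 of the 10733 genes, Gata2, Tal1 and Lyl1 among them. They were above for 214. A window peak in all 4 prometaphase lists was found for 5 of the 10 genes and for 1317 of 22367. Whether auxin acted differently in prometaphase than at the other stage was not tested. limma tested the later stage of each and called none, as given below.

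The best rank in the Gata2 window, at the site past the 3′ end, was 605 to 682 in control and 356 to 531 in auxin prometaphase, and 307 to 358 in control and 475 to 633 in auxin early-G1 (limma −0.73 ± 0.54, SE, unadjusted p = 0.197). The best rank in the Tal1 window was 1551 to 1644 in control and 689 to 1169 in auxin prometaphase, and 267 to 390 in control and 455 to 685 in auxin early-G1 (limma −0.79 ± 0.53, SE, unadjusted p = 0.152). The best rank in the Lyl1 window, where Nfix overlaps, was 365 to 620 in control and 250 to 329 in auxin prometaphase, and 91 to 191 in control and 219 to 418 in auxin late-G1 (limma −1.20 ± 0.64, SE, unadjusted p = 0.0797, adjusted p = 0.618).

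The Kit window held 0 bp in both control lists and 189 to 251 bp in the auxin lists of prometaphase, and 43596 to 44427 bp in control and 38214 to 42306 bp in auxin early-G1. The Gfi1b window held 0 to 168 bp in control and 292 to 534 bp in auxin prometaphase, and 16396 to 16454 bp in control and 15884 to 16188 bp in auxin late-G1. Centred on the median gene of each library, the later differences had the other sign, +0.12 ± 0.26 (SE, limma unadjusted p = 0.655) for Kit and +0.41 ± 0.33 (SE, limma unadjusted p = 0.238) for Gfi1b, so the opposite order of these 2 holds for uncentred bases only. Covered bases in prometaphase were lower in both auxin lists than in both control lists for Gata2 and Lmo2, as for 780 of 10733 genes. They were higher in both auxin lists for 239 of the 10733, Kit and Gfi1b among them. The prometaphase lists differ in length, with 3918 and 3221 peaks in control replicates 1 and 2 and 3539 and 2414 in auxin replicates 1 and 2, and the part of list length in these orders was not tested.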

How the results depend on the processing

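Of 1202 values for the 10 genes under alternative settings, 1168 kept their side of the threshold, 12 lost a call, 22 gained one and 0 called values changed sign, while 87 changed sign with no call in either setting. Apart from leaving out single libraries, given below, the counts of genes called over the whole annotation moved by more than 1.5 times as follows. With normal scores in place of −log2 rank, 4 genes in place of 49 were called for auxin at the TSS, 251 in place of 885 for late-G1 against early-G1 at the TSS, 10 in place of 91 for auxin in the window and 399 in place of 1461 for late-G1 against early-G1 in the window. Covered bases without centring gave 1 call in place of 216 for auxin and 283 in place of 3152 for late-G1 against early-G1, and moved the median gene from 0.02 to −0.07 and from 0.06 to −0.13. Without flanks they gave 118 and 2069, and with a replicate block 24 in place of 216 for auxin. The cause of these shifts was not tested. Calls stronger and weaker at the TSS in late-G1 were 361 and 524 by rank, 478 and 405 by log2 fold enrichment and 53 and 198 by normal score, and for auxin 34 and 15, 35 and 24, and 2 and 2. In the window, late-G1 calls were 698 stronger and 763 weaker by rank and 114 and 285 by normal score. For covered bases the auxin calls were 139 wider and 77 narrower, and 1 and 0 without centring.

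Leaving out 1 library at a time gave 28 to 94 TSS calls for auxin and 499 to 1028 for late-G1 against early-G1, 43 to 222 and 857 to 1639 in the window, and 81 to 436 and 1977 to 3940 for covered bases. Deviations of same-numbered libraries from their group means correlated at 0.0440 to 0.263 for TSS rank, not over 0.1 for every pair, so the numbers were not taken to pair the libraries. With a replicate block, TSS calls were 35 for auxin and 1075 for late-G1 against early-G1, window calls 63 and 1740, and covered-base calls 24 and 3035. Under the block 3 of the 10 genes gained a late-G1 against early-G1 call, Gfi1b and Zfpm1 in the window (+0.96 and +1.16, limma adjusted p of 0.0246 and 0.0127) and Runx1 in covered bases (+0.56, limma adjusted p = 0.0150). Besides the gains without 1 library, given with the results, others came with depth as a covariate (Gfi1b +0.55 and Runx1 +0.50 in covered bases, limma adjusted p of 0.0195 and 0.0419), log2 fold enrichment (Fli1 and Zfpm1 in the window, limma adjusted p of 0.0228 and 0.0475) and no flanks (Zfpm1 in the window, limma adjusted p = 0.0298). Peaks at a −log10 q of at least 5 left 3 genes with a TSS peak in some prometaphase list and 8 in all 14 post-mitotic lists, as in the full lists, but 0 in all 4 prometaphase lists, since Runx1 kept 3 of 4. Gene-body peaks in all 14 lists then held for 9 of 10 genes, with Fli1 at 13 lists, and for 7 when the summit had to lie in the body, with Gata2 at 13, Gfi1b at 12 and Lyl1 at 0. A distance of up to 500 bp from a start in place of overlap gave 4 genes in some prometaphase list and 9 in all 14. Summits of the prometaphase peaks held 9 to 27 reads.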

Other observations

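Inside Kit, 4 annotated starts of transcripts without a coding product lie 35658 to 70781 bp from the 5′ end. The innermost had a summit within 500 bp in 12 of 14 post-mitotic lists at ranks of 7172 to 40924, with a median of 13388, and the other 3 in 10, 12 and 11 lists at ranks of 14822 to 98960. None had one in prometaphase. In Gfi1b an inner start of the same kind, 6577 bp in, had a summit in 7 of 14 lists at ranks of 6158 to 13945. These summits stand inside broad coverage of the gene bodies, and whether they mark initiation was not tested.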
